A study of Rattus norvegicus with 18 samples.

Results

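The miR-379 to miR-410 cluster is the distal block of microRNA (miRNA) hairpins in the imprinted Dlk1-Dio3 region. Its members were taken by name from a fixed list of 34 hairpins, whatever their level, and both mature arms of a hairpin were counted where both were listed. That gave 49 mature miRNAs from 31 hairpins among the 599 miRNAs listed for rat heart. miR-409b, miR-654 and miR-679 were in the list of names but matched no row.

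Small RNA was sequenced from heart tissue in 18 libraries, 6 in each of 3 groups. WKY is the Wistar Kyoto strain, labelled as normal, and SHR is the spontaneously hypertensive strain, labelled as hypertension. The third group, called QDG here, was SHR that received QDG, and the SHR group itself received NS per the series' design. The labels expand neither QDG nor NS and give no age or sex, and strain and blood pressure cannot be told apart in a comparison of SHR with WKY. The design gives 6 animals per group, but no label ties each library to a rat of its own, so the p-values may in part measure technical spread.

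Levels are the deposited normalized counts, called RPM here. They are scaled to 1000000 of a number of reads that differs between libraries and is smaller than the reads over the listed miRNAs, so the values of a library sum to 1338745 to 1508772 and not to 1000000. A single read was worth 0.135 to 0.225 RPM, and the 18 libraries held 6420666 to 10169581 reads over the listed miRNAs. Each miRNA was tested where it reached 1 RPM in at least 6 libraries, which held for 22 cluster members from 16 hairpins and for 410 miRNAs in all. The main test was limma on log2(RPM + 1), with Benjamini-Hochberg adjustment over the 410 miRNAs and a threshold of 0.05. Heart muscle miRNAs were abundant, with 12 rows summing to 492557 to 625638 RPM per library and miR-1-3p alone at 62279 to 129327 RPM.

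The Dlk1-Dio3 miRNAs are expressed from the maternally inherited chromosome only, within long noncoding transcripts that include Meg3 and Mirg. From these precursors the hairpins are cut, and each hairpin can give a 5p and a 3p mature arm. A mature miRNA finds its target mRNAs mainly through its seed, bases 2 to 8. The block is found in placental mammals, is active in embryo and brain and is low in most other adult tissues. In neurons and skeletal muscle it is known as a target of MEF2 transcription factors, which also act in the growth of heart muscle.

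The 11 members whose values are given in full below were those that passed the test in any comparison or were among the 6 most abundant. Their mature sequences in RefSeq (GRCr8 assembly, chromosome 6) are shown 5′ to 3′ with the seed in capitals, because the seeds show how different the targets of 1 cluster can be. The 2 leading members, miR-379-5p and miR-411-5p, come from neighbouring hairpins, and their seeds differ by the substitution G2A, counted from the 5′ end with the base of miR-379-5p first.

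miR-379-5p: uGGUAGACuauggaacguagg

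miR-411-5p: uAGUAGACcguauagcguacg

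miR-494-3p: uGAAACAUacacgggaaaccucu

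miR-541-5p: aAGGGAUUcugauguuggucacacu

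miR-376b-3p: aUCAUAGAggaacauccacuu

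miR-134-5p: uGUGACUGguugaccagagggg

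miR-369-3p: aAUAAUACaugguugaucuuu

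miR-382-3p: aAUCAUUCacggacaacacuu

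miR-543-3p: aAACAUUCgcggugcacuucu

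miR-300-3p: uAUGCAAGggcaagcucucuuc

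miR-409a-3p: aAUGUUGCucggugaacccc

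No seed was shared among the 22 tested members. The seeds of miR-543-3p and miR-382-3p differ only by A3U, with the base of miR-543-3p first. Among all 49 members, seeds were shared by miR-381-3p with miR-539-3p and by miR-299a-3p with miR-299b-3p.

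miR-300-3p has a near copy in the cluster that matters for its counts. The listed miR-381-3p is shorter and differs from miR-300-3p by a single base over the 18 bases compared, G4A with the base of miR-300-3p first.

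miR-381-3p: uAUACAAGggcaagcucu

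No source used here says how reads that fit both rows were assigned, so the level of miR-300-3p is uncertain. Over the 18 libraries miR-300-3p held 935 reads and miR-381-3p held 13. The same holds for miR-299b-3p, whose 17 bases all lie within miR-299a-3p.

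The 3p arms shared a feature that the choice of members did not use and that was noticed on reading the sequences. The letters GGU, read on the mature strand from base 11, were present in 11 of the 27 cluster rows named as 3p arms (40.7%) and in 12 of all 261 listed 3p rows (4.60%). The tested rows with these letters include miR-411-3p, miR-543-3p, miR-409a-3p and miR-369-3p, and miR-495, which is listed without an arm, has them too. No 5p row of the cluster, of 20, had GGU at that place. The letters describe the sequences and carry no measured effect.

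The cluster was scarce in every heart library. miR-411-5p and miR-379-5p, its most abundant members, averaged 11.8 and 11.3 RPM over the 18 libraries and ranked 240 and 242 among the 599 listed miRNAs. They were followed by miR-300-3p at 9.52 RPM, miR-541-5p at 5.71 RPM, miR-543-3p at 4.65 RPM and miR-409a-3p at 4.18 RPM. Together the 49 members took 0.00771% ± 0.000821 (SD, n = 6) of the reads over listed miRNAs in WKY. The share was 0.00456% ± 0.00122 for SHR and 0.00548% ± 0.000849 for QDG (SD, n = 6 each). The 6 most abundant members held 58.2% ± 2.98 of the cluster's signal in WKY, with 55.6% ± 3.42 for SHR and 53.9% ± 3.74 for QDG.

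The summed level of the cluster was highest in WKY. The sum over the 49 members ran from 99.1 to 124.8 RPM in WKY, with a median of 109.8 RPM. In SHR it ran from 47.1 to 85.6 RPM with a median of 55.8 RPM, and in QDG from 64.6 to 88.9 RPM with a median of 80.4 RPM. Every WKY library lay above every SHR and QDG library, while SHR and QDG overlapped. The mean was 110.9 ± 10.8 RPM for WKY, 63.5 ± 16.5 RPM for SHR and 77.7 ± 11 RPM for QDG (SD, n = 6 each). The SHR mean was 0.572 times the WKY mean, and the QDG mean was 1.22 times the SHR mean. In whole tissue, fewer cells that express the cluster and less RNA per cell cannot be told apart.

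**Figure D1:**
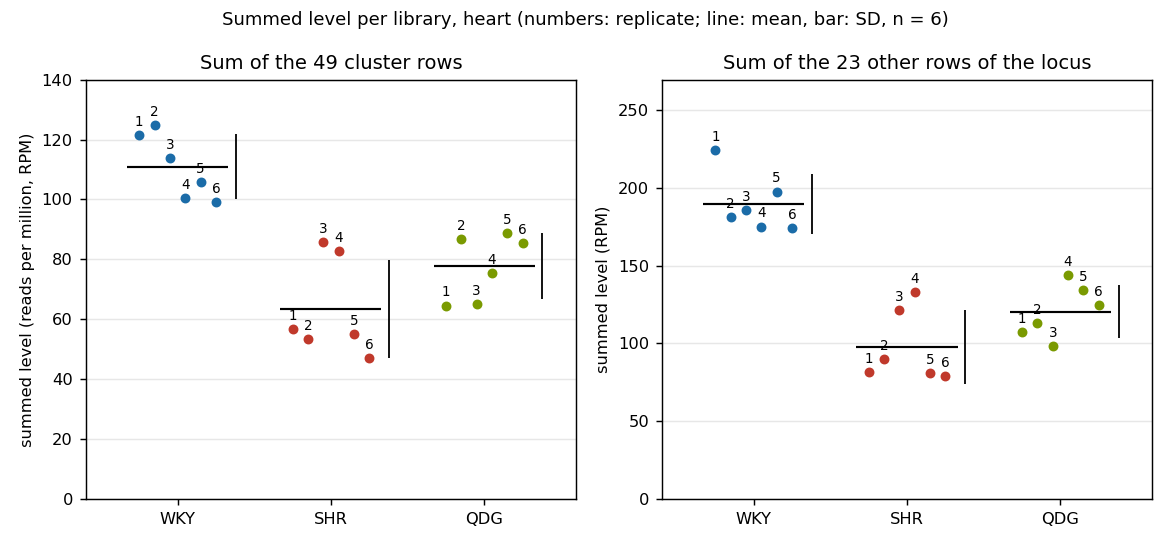
Summed level in RPM (vertical axis) of the 49 cluster members (left) and of 23 other miRNA rows of the Dlk1-Dio3 region (right) in each of 18 heart libraries, with replicate numbers, the group mean as a line and the SD as a bar. The WKY libraries, at 99.1 RPM or more on the left, lie above all others, and SHR replicates 3 and 4 lie above the other 4 SHR libraries in both panels.

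The SHR libraries were not alike. SHR replicates 3 and 4 held 85.6 and 82.9 RPM over the 49 members, against 47.1 to 56.6 RPM in the other 4. The highest SHR value belonged to replicate 3 for 14 of the 22 tested members and to replicate 4 for the other 8. Over all 410 tested miRNAs, these 2 libraries held the highest SHR value for 124 (30.2%). The median deviation of the 22 members from their SHR mean was 0.40 in replicate 3 and 0.37 in replicate 4 on the log2 scale, and from -0.27 to -0.09 in the other 4. These counts and deviations use the same values that set the 2 libraries apart, so they describe the split and do not test it.

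These 2 libraries held 7236414 and 7812767 reads, among SHR libraries of 6420666 to 10169581. The summed neuronal markers were at 1467 RPM in SHR replicate 3, the highest of the SHR libraries, and at 1286 RPM in replicate 4, with 1088 to 1354 RPM in the other 4. The summed fibroblast markers were at 36581 and 30799 RPM, within the range of the other 4 at 30531 to 52247 RPM. The summed leukocyte markers were at 1232 and 1234 RPM, the 2 lowest values of the SHR libraries, with 1305 to 1420 RPM in the other 4. The summed smooth muscle markers were at 44421 RPM in replicate 3, the lowest of the SHR libraries, and at 52627 RPM in replicate 4, with 48743 to 65776 RPM in the other 4. Replicate 3 was the highest SHR library for the summed endothelial (126819 RPM) and red blood cell (859 RPM) markers, and replicate 4 lay within the other 4 for both. The part of depth and of cell makeup in this split was not tested. Because the split was seen in the cluster itself, no test was made between these 2 libraries and the rest.

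The first comparison asked how the cluster differed between hearts of the hypertensive strain and the normal strain. Of the 22 tested members, 10 were lower in SHR and none was higher (limma, adjusted p under 0.05), while 15.1% of all tested miRNAs were lower and 8.05% were higher. Under TMM scaling 8 members were lower and none was higher, while 10.5% of all tested miRNAs were lower and 12.7% were higher. The difference was below 0 for 21 of the 22, against 58.5% of all tested miRNAs, and for 20 under TMM, RLE or upper quartile scaling. The median log2 difference of the 22 was -0.44, and that of all 410 was -0.07. At an unadjusted p under 0.05, 13 of the 22 were lower, against 22.7% of all tested miRNAs. The members are rows of the same block and some are both arms of a hairpin, so these counts are not of independent results.

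The filter favours members that are high in 1 group. Leaving the WKY libraries out of the filter kept 16 of the 22 members, and 9 of these 16 were lower in SHR with a median of -0.55. The share over all miRNAs under that filter was not counted, and under the full filter 15.1% were lower. miR-376b-3p was the only lower member that needed the WKY libraries to pass. Groups did not overlap for 3 members, miR-379-5p, miR-411-5p and miR-376b-3p, and for 6.83% of all tested miRNAs in the lower direction. Only miR-494-3p and miR-379-5p reached a 2-fold difference on the log2(RPM + 1) scale, which understates the change of scarce miRNAs. Over all 410 tested miRNAs, 12 passed the test with a difference of at least that size in either direction.

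**Figure D2:**
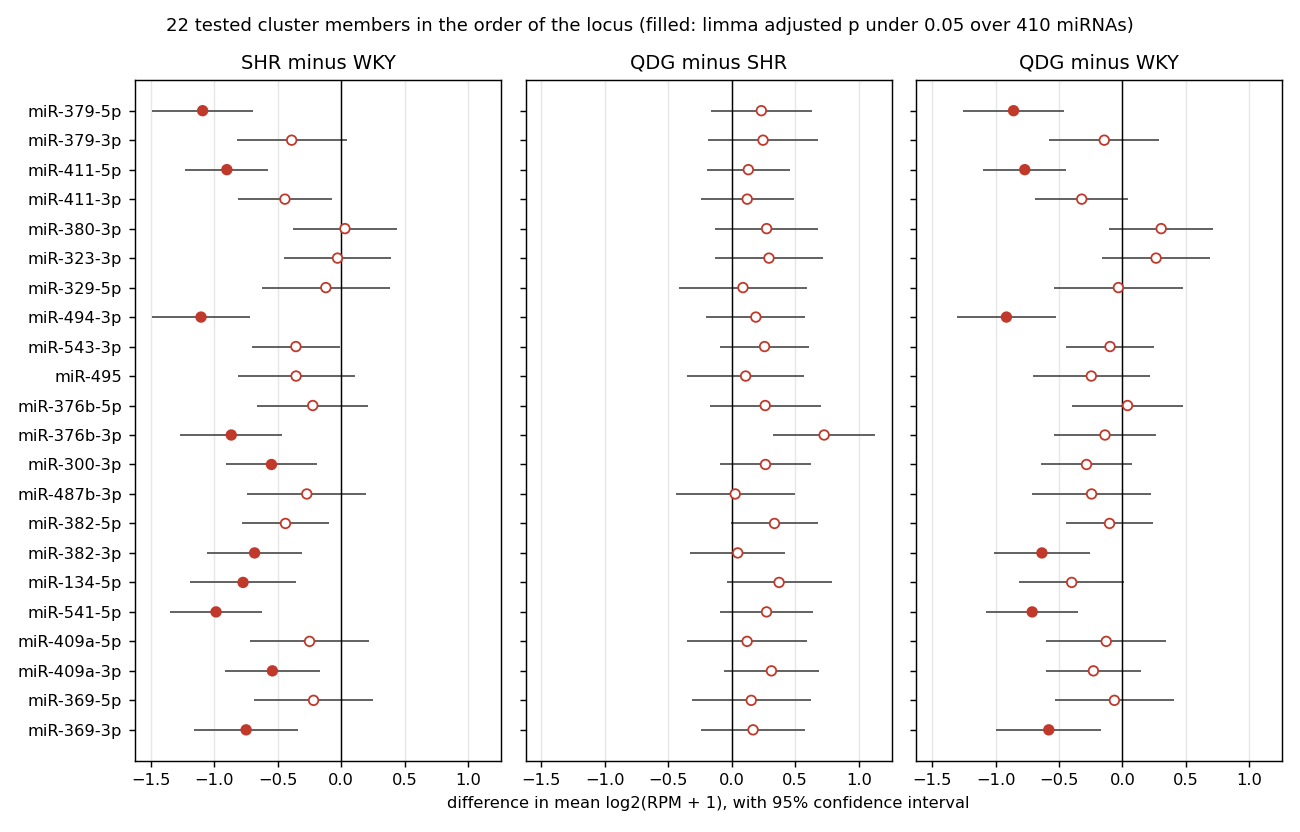
Difference in mean log2(RPM + 1) with its 95% confidence interval (horizontal axis) for the 22 tested members, in the order of the locus from miR-379 at the top, in the 3 comparisons. Filled points passed the limma test after adjustment over 410 miRNAs: 10 members in SHR minus WKY, none in QDG minus SHR and 6 in QDG minus WKY.

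miR-379-5p, from the first hairpin of the block, did not overlap between the SHR and WKY groups. It ran from 11.9 to 21.7 RPM in WKY (median 17.9 RPM), from 6.52 to 9.77 RPM in SHR (median 7.05 RPM) and from 4.45 to 13 RPM in QDG (median 9.86 RPM). The highest SHR library lay below the lowest WKY library, and QDG overlapped both groups. The log2 difference of SHR from WKY was -1.09 ± 0.19 (SE, limma adjusted p = 0.000114).

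miR-411-5p, from the next hairpin, had nearly the same levels. It ran from 11.805 to 23.4 RPM in WKY (median 16.9 RPM), from 7.36 to 11.786 RPM in SHR (median 8.13 RPM) and from 6.78 to 12 RPM in QDG (median 9.50 RPM). WKY and SHR met without overlapping, since WKY replicate 4 was only just above SHR replicate 3. The log2 difference was -0.90 ± 0.16 (SE, limma adjusted p = 0.000114).

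miR-494-3p has been studied in heart muscle cells under ischaemia. It ran from 2.14 to 5.18 RPM in WKY (median 4.51 RPM), from 0.810 to 2.23 RPM in SHR (median 1.36 RPM) and from 1.03 to 2.74 RPM in QDG (median 1.71 RPM). WKY replicate 3 was the only WKY library within the SHR range, and the next lowest WKY library was at 4.42 RPM. The log2 difference of SHR from WKY was -1.10 ± 0.19 (SE, limma adjusted p = 8.28e-05).

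miR-541-5p, described in cultured heart muscle cells as a brake on hypertrophic growth, ran from 5.77 to 11.2 RPM in WKY (median 8.50 RPM). It ran from 2.57 to 5.83 RPM in SHR (median 3.29 RPM) and from 3.10 to 6.02 RPM in QDG (median 5.06 RPM). A single SHR library, replicate 4, reached into the WKY range. The log2 difference was -0.99 ± 0.18 (SE, limma adjusted p = 0.000124).

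miR-376b-3p belongs to the miR-376 group, known in brain for editing of adenosines in its seed. It ran from 1.12 to 1.98 RPM in WKY (median 1.31 RPM), from 0 to 0.982 RPM in SHR (median 0.292 RPM) and from 0.668 to 1.53 RPM in QDG (median 1.42 RPM). SHR lay wholly below WKY, but on few reads, 0 to 5 per SHR library and 5 to 13 per WKY library, with SHR replicates 2 and 5 at 0. A count of 0 in a library allows up to 3 reads, 0.513 RPM in replicate 2 and 0.524 RPM in replicate 5, counting error only. The log2 difference was -0.87 ± 0.20 (SE, limma adjusted p = 0.00148). Its size depended on how low values were treated, from -0.26 with a pseudocount of 5 to -1.96 with DESeq2 on whole reads, and it passed the test in each of the 32 alternatives (adjusted p from 0.000432 to 0.0149).

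miR-134-5p, which restrains the growth of dendritic spines in neurons through Limk1, ran from 1.79 to 4.12 RPM in WKY (median 3.10 RPM). It ran from 0.450 to 2.16 RPM in SHR (median 1.47 RPM) and from 1.02 to 3.13 RPM in QDG (median 2.09 RPM). The groups overlapped through WKY replicate 5, the lowest of its group. The log2 difference of SHR from WKY was -0.77 ± 0.20 (SE, limma adjusted p = 0.00633).

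miR-369-3p, known for binding an AU-rich element in the mRNA of tumour necrosis factor, ran from 2.80 to 5.14 RPM in WKY (median 3.72 RPM). It ran from 1.08 to 3.34 RPM in SHR (median 1.92 RPM) and from 1.17 to 3.51 RPM in QDG (median 2.38 RPM). SHR replicate 3 was the only SHR library inside the WKY range. The log2 difference was -0.75 ± 0.20 (SE, limma adjusted p = 0.0071).

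miR-382-3p, the more abundant arm of its hairpin, ran from 3.04 to 5.92 RPM in WKY (median 4.95 RPM). It ran from 1.22 to 3.73 RPM in SHR (median 3.11 RPM) and from 2.20 to 4.01 RPM in QDG (median 2.55 RPM). WKY replicate 6 was the only WKY library within the SHR range. The log2 difference was -0.68 ± 0.18 (SE, limma adjusted p = 0.0071).

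miR-300-3p and miR-409a-3p passed the test by a narrower margin. miR-300-3p ran from 9.11 to 13.1 RPM in WKY (median 11.4 RPM), from 4.89 to 12 RPM in SHR (median 7.13 RPM) and from 6.78 to 11.8 RPM in QDG (median 8.67 RPM). Its log2 difference was -0.55 ± 0.17 (SE, limma adjusted p = 0.0207), and SHR replicates 3 and 4 lay within the WKY range. The call was lost without SHR replicate 2, 5 or 6 (adjusted p = 0.0615, 0.0634 and 0.0519) and under TMM, RLE or upper quartile scaling (adjusted p = 0.0776, 0.0630 and 0.0684), over alternatives that ranged from 0.00347 to 0.0908.

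miR-409a-3p ran from 3.63 to 6.86 RPM in WKY (median 5.13 RPM), from 2.02 to 4.46 RPM in SHR (median 3.56 RPM) and from 2.96 to 6.02 RPM in QDG (median 4.04 RPM). Its log2 difference was -0.54 ± 0.18 (SE, limma adjusted p = 0.0300). The call was lost without WKY replicate 1, 2 or 5 and without SHR replicate 1 or 6 (adjusted p = 0.0764, 0.0661, 0.0846, 0.0857 and 0.0869). It was also lost under the same 3 scalings (adjusted p = 0.0813, 0.0745 and 0.0684), over alternatives that ranged from 0.0180 to 0.0869.

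miR-543-3p was the only one of the 6 most abundant members that did not pass. It ran from 4.12 to 6.84 RPM in WKY (median 4.94 RPM), from 2.62 to 6.48 RPM in SHR (median 3.62 RPM) and from 3.56 to 6.57 RPM in QDG (median 4.71 RPM). The log2 difference was -0.36 ± 0.17 (SE, limma adjusted p = 0.135). SHR replicate 3 stood well above the other SHR libraries, which reached at most 3.93 RPM. Without that library the adjusted p was 0.0275, the only one of 32 alternatives (0.0275 to 0.307) under the threshold.

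**Figure D3:**
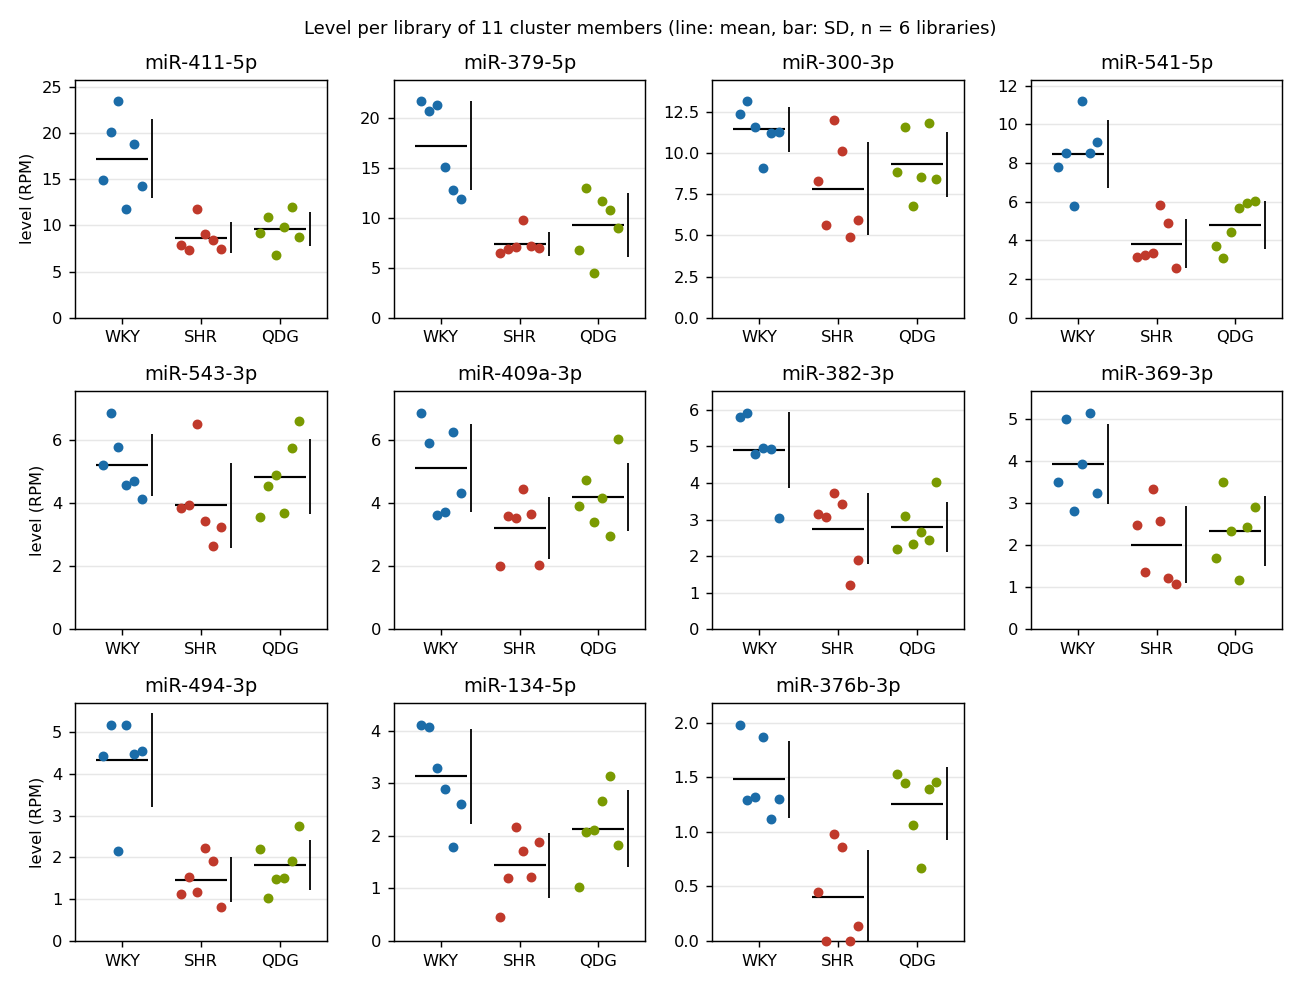
Level in RPM (vertical axes, each from 0) of 11 cluster members in 18 heart libraries, with the group mean as a line and the SD as a bar (n = 6), ordered by abundance. miR-379-5p, miR-411-5p and miR-376b-3p have no SHR library within the WKY range, and QDG libraries overlap SHR libraries in every panel.

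The 11 tested members outside this group did not pass in SHR against WKY. Closest to the threshold were miR-382-5p at -0.44 (limma adjusted p = 0.0586) and miR-411-3p at -0.44 (limma adjusted p = 0.0772). miR-379-3p, miR-495, miR-487b-3p, miR-409a-5p, miR-376b-5p, miR-369-5p and miR-329-5p lay between -0.39 and -0.12. miR-323-3p, at -0.03 with a 95% interval of -0.45 to 0.39, and miR-380-3p, at 0.03 with an interval of -0.38 to 0.44, were nearest to no difference. Both come from neighbouring hairpins near the start of the block, between miR-411-5p and miR-494-3p, which passed. miR-323-3p was also among the better measured members, at 1.34 to 5.49 RPM in WKY, 2.27 to 5.14 RPM in SHR and 3.17 to 5.74 RPM in QDG.

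The calls came from along the whole block. Of the 13 tested members from the first 16 hairpins, 5 were lower in SHR (median -0.39), and so were 5 of the 9 from the other 15 hairpins (median -0.54). By arm, 4 of 9 tested 5p arms and 6 of 12 tested 3p arms were lower, with medians of -0.44 and -0.49. Over all 410 tested miRNAs 15.1% were lower, with a median of -0.07.

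The 27 members that did not reach the filter averaged 0.0204 RPM (miR-541-3p) to 0.827 RPM (miR-329-3p) over the 18 libraries. None was at 0 in every library. Summed, they held 6.28 to 9.76 RPM in WKY, 2.97 to 7.20 RPM in SHR and 5.09 to 7.64 RPM in QDG, so SHR overlapped WKY, and SHR replicates 3 and 4 were again the highest of their group at 6.09 and 7.20 RPM. miR-329-3p (5 libraries at 1 RPM) and miR-485-3p (4 libraries) were the closest to entering the test, and miR-380-3p (6 libraries) entered it by the narrowest margin. miR-410-3p, the last member of the block, ran from 0.370 to 0.671 RPM in WKY, 0 to 0.857 RPM in SHR and 0.339 to 1.06 RPM in QDG, at most 5 reads in any library. With no filter, all 599 miRNAs were tested. Of these 27, none was then called in SHR against WKY, against 16.4% of all 599, and the smallest limma adjusted p was 0.0508 (miR-299a-3p). At a limma unadjusted p under 0.05, 5 were lower and none was higher, against 28.5% of the 599 in either direction. None was called in QDG against SHR, nor was any of the 599 (0%). There 3 were higher at a limma unadjusted p under 0.05, against 4.34% of the 599 in either direction. In QDG against WKY 1 was called, against 11.9% of the 599. It was miR-376c-3p, singled out after its values were seen. It held 4 to 6 reads per library in WKY, 1 to 6 in SHR and 0 to 6 in QDG, so the groups overlapped. Its log2 difference in QDG against WKY was -0.57 ± 0.17 (SE, limma adjusted p = 0.0254 over the 599).

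The second comparison asked what QDG was associated with in SHR hearts. No member passed the test, and none of the 410 tested miRNAs did (0% called by limma). edgeR and DESeq2 on whole reads called none either. At an unadjusted p under 0.05 there was 1 member by each of limma, edgeR and DESeq2, against 15 of all 410 miRNAs (3.66%) by limma. The difference was above 0 for 22 of the 22 tested members, against 54.1% of all tested miRNAs, with a median of 0.24 beside 0.02 for all 410. Leaving out single libraries left 19 to 22 of the 22 above 0, and DESeq2 with its own size factors left 20. The 22 members are not independent of each other, as some are both arms of a hairpin and their levels moved together across the SHR libraries. Their count above 0 is thus a description and no test of QDG. This comparison and that of SHR with WKY share the SHR libraries, so a low value in SHR enters both with opposite signs and their directions are not independent.

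miR-376b-3p had the largest difference between QDG and SHR, 0.73 ± 0.20 on the log2 scale (SE, limma unadjusted p = 0.00092, adjusted p = 0.189). Its QDG libraries, at 0.668 to 1.53 RPM, overlapped SHR through SHR replicates 3 and 4 at 0.982 and 0.857 RPM. miR-134-5p followed at 0.37 ± 0.20 and miR-382-5p at 0.34 ± 0.17 (SE, limma adjusted p = 0.983 for each). The 4 members most lowered in SHR had small differences with intervals that include 0. They were 0.23 for miR-379-5p (95% interval -0.16 to 0.63), 0.13 for miR-411-5p (-0.20 to 0.46), 0.19 for miR-494-3p (-0.20 to 0.58) and 0.27 for miR-541-5p (-0.09 to 0.64). A failed test does not show that QDG and SHR were alike.

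Against WKY, 6 of the 22 tested members were lower in QDG and none was higher (limma, adjusted p under 0.05), while 10.5% of all tested miRNAs were lower and 7.32% were higher. Under TMM scaling 5 members were lower, beside 7.80% of all tested miRNAs lower and 12.2% higher. The difference was below 0 for 19 of the 22, against 58.5% of all tested miRNAs, and the median was -0.24 beside -0.06 for all 410. Of the 16 members that pass the filter without the WKY libraries, 6 were lower with a median of -0.30. The share over all miRNAs under that filter was not counted. No member's QDG libraries lay wholly below WKY, where 4.15% of all tested miRNAs did. Here too the members are not independent of each other.

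The 6 were miR-494-3p at -0.91 ± 0.19, miR-379-5p at -0.86 ± 0.19, miR-411-5p at -0.77 ± 0.16, miR-541-5p at -0.71 ± 0.18, miR-382-3p at -0.63 ± 0.18 and miR-369-3p at -0.58 ± 0.20 (log2 difference ± SE). Their limma adjusted p-values were 0.000748, 0.00154, 0.000748, 0.00436, 0.0132 and 0.0434 in that order. miR-369-3p lost its call in 18 of 32 alternatives (adjusted p from 0.0214 to 0.128), among them the removal of WKY replicate 1, 2, 4 or 5 or of QDG replicate 1, 3, 4 or 5. miR-376b-3p, lower in SHR, was at -0.14 in QDG with a 95% interval of -0.54 to 0.26, and miR-134-5p was at -0.40 with an interval of -0.81 to 0.01. The WKY libraries are shared with the comparison of SHR with WKY, and no test of the difference between the 2 comparisons beyond QDG minus SHR was made.

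**Figure D4:**
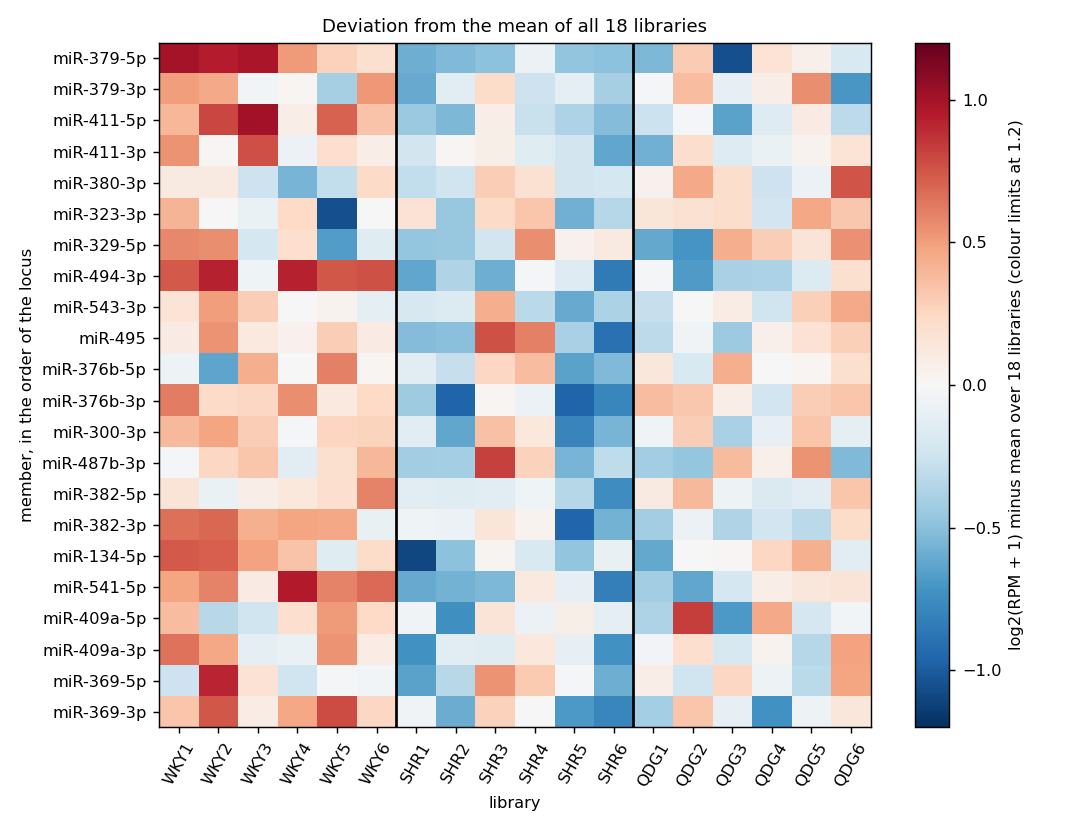
Deviation of log2(RPM + 1) from the mean of all 18 libraries (colour) for the 22 tested members, in the order of the locus (rows), in each library (columns, groups divided by lines). The WKY columns are mostly above the mean, the highest SHR value is in replicate 3 or 4 for 22 of 22 members, and miR-380-3p and miR-323-3p, at 0.03 and -0.03 between SHR and WKY, lack the contrast.

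Both arms of 6 hairpins could be tested, and the ratio of 5p to 3p asks whether the arms of a hairpin moved apart. Over the 18 libraries the 5p arm held 89.9% of 1255 reads for miR-379 and 85% of 1371 reads for miR-411. The 3p arm held the larger part in the others, where the 5p share was 19.5% of 512 reads for miR-409a, 26.6% of 361 reads for miR-369, 34.6% of 523 reads for miR-382 and 45.7% of 188 reads for miR-376b. The ratio test called none of the 6 hairpins in SHR against WKY, QDG against SHR or QDG against WKY, where 0.794%, 0% and 0.794% of 126 hairpins were called by limma. At an unadjusted p under 0.05 the comparison of SHR with WKY held 4 of the 6, miR-376b, miR-379, miR-411 and miR-369, and 14.3% of the 126 hairpins. All 4 shifted toward the arm that was scarcer in WKY. With a pseudocount of 1, an equal fold fall of both scarce arms also shifts the ratio that way. How much of each shift such a fall makes up was not tested, so these p-values do not show arms moving apart. The ratio was not tested with other tools.

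For miR-379 the 5p share of the reads of both arms ran from 84.6% to 95% in WKY (median 91.7%), 81.8% to 93.5% in SHR (median 89.2%) and 80.8% to 96.1% in QDG (median 86.3%). The groups overlapped throughout. The log2 ratio was lower in SHR than in WKY by -0.70 ± 0.23 (SE, limma adjusted p = 0.104), and the pseudocount of 1 weighs more on the scarce 3p arm. The call appeared without WKY replicate 6 (adjusted p = 0.0418) and with a pseudocount of 5 (0.00125), over alternatives that ranged from 0.00125 to 0.230 for this hairpin.

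miR-376b went the other way, with a 5p share of 12.5% to 61.5% in WKY (median 35.4%), 54.5% to 100% in SHR (median 64.1%) and 30% to 58.3% in QDG (median 41.4%). The SHR share rests on 23 reads of the 5p arm and 13 of the 3p arm over the 6 libraries. The log2 ratio differed by 0.64 ± 0.20 between SHR and WKY (SE, limma adjusted p = 0.0999). Of the alternatives run, it passed only without WKY replicate 5 (adjusted p = 0.0181), and the others reached up to 0.218.

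**Figure D5:**
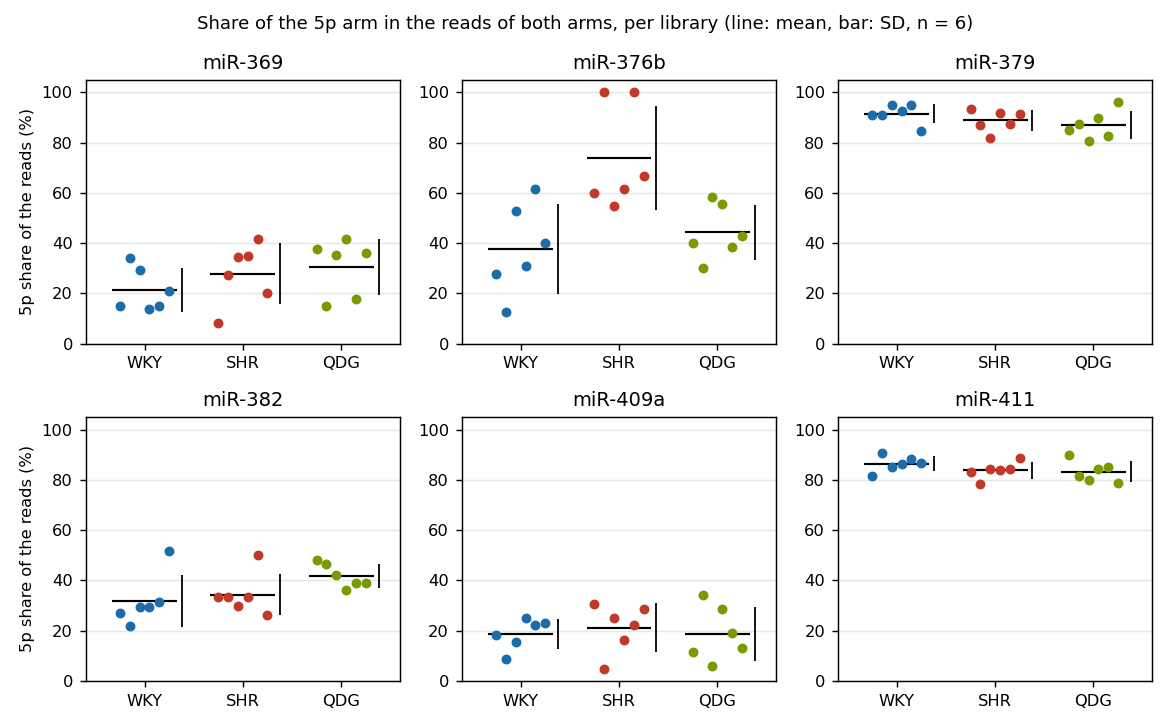
Share of the 5p arm in the reads of both arms (%, vertical axes) for the 6 hairpins with both arms tested, in each of 18 libraries, with the group mean as a line and the SD as a bar (n = 6). miR-379 and miR-411 are above 78% in every library, and the shares of miR-376b spread from 12.5% to 100%.

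The other Dlk1-Dio3 miRNAs included members lower in SHR as well. Of 23 other listed rows of the region 12 were tested, and 7 of these were lower in SHR than in WKY with a median of -0.55. Over all 410 tested miRNAs 15.1% were lower, with a median of -0.07. The most abundant of the 23 rows was miR-127-3p, which lies antisense to the imprinted gene Rtl1. It ran from 129.9 to 181.7 RPM in WKY, 56.3 to 92.9 RPM in SHR and 68.7 to 107.7 RPM in QDG, with a log2 difference of -1.07 ± 0.13 between SHR and WKY (SE, limma adjusted p = 2.62e-07). Summed, the 23 rows had 0.515 times the WKY mean in SHR, beside 0.572 for the cluster, and SHR replicates 3 and 4 were again the highest of their group at 121.4 and 133.3 RPM against 79.0 to 89.8 RPM. No test of a difference between the cluster and these rows was made.

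Among the cell type markers, only miR-129-5p was called lower in SHR than in WKY, the direction of the cluster, and the other marker rows called were higher. The summed level of 12 rows of neuronal miRNAs ran from 1122 to 1383 RPM in WKY, 1088 to 1467 RPM in SHR and 1155 to 1431 RPM in QDG, so the groups overlapped. Of its 8 tested rows, miR-129-5p was lower and miR-219a-1-3p higher in SHR than in WKY, and miR-124-3p, which defines neurons, was at 0.650 to 1.83 RPM in WKY, 0.270 to 1.12 RPM in SHR and 0 to 1.24 RPM in QDG. Most of the neuronal sum came from miR-128-3p and miR-9a-5p, with medians of 756 and 476 RPM in WKY and 908 and 374 RPM in SHR. Neither of them was called. The 6 rows of fibroblast and stroma miRNAs summed to 27463 to 32170 RPM in WKY and 30531 to 52247 RPM in SHR, with miR-21-5p higher in SHR and the other 4 tested rows not called. Among 10 tested heart muscle rows, miR-1-3p and miR-208b-3p were higher in SHR. Over all tested miRNAs 15.1% were lower in SHR than in WKY and 8.05% were higher. The part of these cell types in the cluster's lower level was not tested.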

How the data were processed

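Per the labels' protocols, total RNA of rat heart tissue went into 18 small RNA libraries made with a NEBNext kit. FastQC, TopHat2 and limma are named, without versions or roles, in the submitters' processing notes. No source used here names the genome build or the rules for reads that fit several miRNAs. The deposited values are normalized read counts per mature miRNA, a signal that in each library came in whole multiples of 1 step. Divided by that step, 10782 of 10782 values came within 0.01 of a whole number of reads (100%), and the values are called RPM. That step is 1000000 divided by a number of reads smaller than the reads over the listed miRNAs, so the values of a library sum to more than 1000000. What that number counts is not known here.

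The planned test for normalized values was limma (3.58.1, R 4.3.3), with variance trend and robust moderation, on log2(RPM + 1) over the 410 of 599 miRNAs that reached 1 RPM in 6 or more libraries, all 18 libraries in 1 fit with no covariate. The 5p to 3p ratios of 126 hairpins were fitted alike, without the trend. Benjamini-Hochberg adjustment ran over each comparison. Alternatives used edgeR (4.0.16, quasi-likelihood) and DESeq2 (1.42.0) on whole reads, which called 95 and 98 of the 410 in SHR against WKY, 0 and 0 in QDG against SHR and 68 and 80 in QDG against WKY (where DESeq2 gave an adjusted p to 386 of the 410, and to 19 of the 22 members), beside 95, 0 and 73 by limma. The scripts were tested on simulated data. Intervals have a level of 95% and floors are 3 reads, for counting error only.

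Names were matched to RefSeq (GRCr8), 49 of 49 cluster rows and 21 of 23 other Dlk1-Dio3 rows. No genome coordinates were used. The cluster's members, the other lists and the tests were chosen with earlier results of these data known. Named in full were members called in any comparison and the 6 most abundant. Marker lists were heart and skeletal muscle, endothelium, smooth muscle, fibroblast and stroma, red blood cells, neurons and leukocytes. Of the skeletal muscle, endothelial, smooth muscle and red blood cell rows none was called in the 3 comparisons. Over all tested miRNAs 23.2% were called in SHR against WKY, 0% in QDG against SHR and 17.8% in QDG against WKY. The leukocyte list held 1 higher row in SHR and 2 in QDG against WKY, of 7 tested, where 8.05% and 7.32% of all tested miRNAs were higher.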

Additional observations from a re-analysis of the deposited data

Results flagged for a closer look

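In 6 of 69 groups of 6 libraries, 1 library stood apart from the others by more than Dixon's critical value at the 95% level, for the gap as a share of the range. Chance alone gives about 1 in 20 such groups. High SHR libraries were miR-379-5p in SHR replicate 4 at 9.77 RPM (next highest 7.16 RPM) and miR-543-3p in SHR replicate 3 at 6.48 RPM (next highest 3.93 RPM). miR-409a-5p in SHR replicate 2 was low, at 0.171 RPM, a single read, with the next lowest at 0.810 RPM. In WKY, miR-494-3p was low in replicate 3 at 2.14 RPM (next lowest 4.42 RPM). miR-369-5p was high in WKY replicate 2 at 2.59 RPM (next highest 1.15 RPM), and miR-382-5p was high in WKY replicate 6 at 3.25 RPM (next highest 2.24 RPM).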

How the results depend on the processing

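The count of members lower in SHR than in WKY was 10 and stayed between 8 and 11 under the alternatives other than a filter of 10 RPM, which left 3 members to test and called 3. For QDG against WKY it was 6, between 5 and 6 otherwise, and 2 of 3 under that filter. QDG against SHR gave 0 in every alternative run. No member was called higher in any of them. With no filter, 10, 0 and 6 members were called in SHR against WKY, QDG against SHR and QDG against WKY, the last with miR-376c-3p, which the filter left out. TMM scaling moved the median of all tested miRNAs in SHR against WKY from -0.07 to 0.03, and the share of its calls that were higher from 34.7% to 54.7% (RLE 48.9%, upper quartile 46.6%). In QDG against WKY that share went from 41.1% to 61.0% (RLE 51.2%, upper quartile 50.6%). Under each of these 3 scalings 8 and 5 members were called lower. The arm ratio called 0 of 6 hairpins, but 2 in SHR against WKY and 2 in QDG against WKY with a pseudocount of 5, which by construction presses the scarce arm's differences toward 0. Leaving out single libraries gave 0 to 1 hairpins in SHR against WKY and 0 to 2 in QDG against WKY. These were miR-376b without WKY replicate 5 and miR-379 without WKY replicate 6, and then miR-379 and miR-382 without WKY replicate 6 and miR-379 without QDG replicate 6. The ratio under the filter of 10 RPM was not run, since no cluster hairpin had both arms there. Without miR-411-5p the mean summed level fell, as a sum must, from 110.9 to 93.7 RPM in WKY. It fell from 63.5 to 54.8 RPM in SHR and from 77.7 to 68.1 RPM in QDG. The SHR mean was then 0.585 times the WKY mean, beside 0.572 with all members. The difference of miR-382-3p in QDG against SHR, 0.047, was -0.095 without WKY replicate 1 and SHR replicate 5 together. Without single libraries it ran from -0.095 to 0.12, and it was below 0 without SHR replicate 5 (-0.095), SHR replicate 6 (-0.019) or QDG replicate 6 (-0.037). The cause was not tested. With a replicate block 9, 0 and 5 members were called in the 3 comparisons (SHR against WKY, QDG against SHR, QDG against WKY), miR-409a-3p at an adjusted p of 0.0526 and miR-369-3p at 0.0706. No clear pairing by the shared numbers was seen. Deviations of same-numbered libraries correlated at a median of 0.04 (-0.17 to 0.23), beside -0.02 (-0.40 to 0.37) for libraries of different numbers. Of 18 libraries, 2 correlated best with their own number. Such weak correlations cannot show that the libraries were unpaired. Alternatives with edgeR under TMM and DESeq2 under its own size factors were chosen after seeing the data and called 8, 0 and 5 members each. Depth limits the scarce members most, since 3 reads are worth 0.405 to 0.674 RPM.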

Other observations

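miR-1193-3p lies among the cluster's hairpins in the RefSeq order but was not in the list of names, and it was too scarce to be tested. It ran from 0.330 to 1.52 RPM in WKY (median 1.13 RPM), from 0 to 0.786 RPM in SHR (median 0.283 RPM) and from 0 to 0.547 RPM in QDG (median 0.421 RPM). The groups overlapped through WKY replicate 3, the lowest of its group.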
